A study of Mus musculus with 17 samples.

Results

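The genes described here are 49 antigen presentation and interferon response genes, chosen by name out of 55450 genes counted in mouse hippocampus, and each was followed across 17 RNA-seq libraries. By role they comprise 4 class I molecules, 8 genes that supply peptides to class I, 4 class II molecules, 6 transcription factors, 21 RNA sensors and antiviral effectors and 6 interferon-inducible GTPases. A gene ID was matched for 48 of them, all of which had enough reads to be tested, and Psmb9 is not analysed here. Expression is given in CPM, a gene's reads relative to all reads in genes of that library after scaling between libraries, and differences as log2 fold changes.

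Libraries were made from the hippocampus of adult C57BL/6J mice of either sex, which were 2 to 3 months old at surgery. The labels number the libraries, and each number is called a mouse below, although the labels do not state that a library holds 1 animal. Epilepsy was induced by injecting the right amygdala with kainic acid, which excites neurons through glutamate receptors and sets off status epilepticus, a model of temporal lobe epilepsy. Control mice were sham-treated. All mice, controls included, carried AAV9 vectors in the right ventral hippocampus, 1 with dCas9-VP64 under a doxycycline-dependent promoter and 1 with a guide RNA and a transactivator driven by the Camk2a promoter, which favours excitatory neurons, and all were fed doxycycline for 2 weeks. The guide was either sgLacZ, directed at a bacterial gene, or sgKcna1, directed at the promoter of Kcna1, a potassium channel gene, in a CRISPRa design that raises transcription without cutting DNA. The groups were control sgLacZ (5 libraries), epileptic sgLacZ (6 libraries) and epileptic sgKcna1 (6 libraries). No group was free of virus, so the level of these genes without vector cannot be told from these libraries, and untransduced cells of the hippocampus are part of every library.

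Interferons are secreted proteins that signal through JAK kinases. Type I interferons act on promoters mainly through interferon-stimulated response elements, to which a complex with STAT2 and IRF9 binds, and interferon gamma mainly through gamma-activated sites. The induced genes encode sensors of foreign RNA, proteins that block viral replication, GTPases that attack the vacuoles of intracellular microbes, and the machinery that shows peptides to T cells. Class I molecules present cytosolic peptides made by the proteasome and carried into the endoplasmic reticulum by the TAP1 and TAP2 transporter. Class II molecules present peptides from the endosomes, in the brain mainly on microglia and on macrophages and dendritic cells of the borders.

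Both response elements, through which interferons act on promoters, were searched in the 250 bases before each gene's start in RefSeq's promoter table (GRCm38.p6). The searched letters were GAAANNGAAA for the interferon-stimulated response element and TTCNNNGAA for the gamma-activated site, on either strand, and the matches can overlap each other. The table held 37 of the 49 genes. The former was found in 15 of these 37 genes (40.5%), beside 3.46% of all 27025 genes of the table, and the latter in 6 (16.2%), beside 8.13%. All 5 GTPases with an entry held the former, as did 7 of 15 sensors and effectors, 2 of 4 class I molecules, 1 of 4 transcription factors, 0 of 7 peptide supply genes and 0 of 2 class II molecules. The following stretches show the match in capitals with up to 20 bases on each side, 5′ to 3′ on the strand of the gene. They are given because they include genes with a wide range between libraries (Isg15, Ifit1, Bst2), the GTPases and the class I light chain, and Irf1 and Psmb8 as examples of the gamma-activated site.
Isg15 (chr4:156200861-156200910, minus strand, the central of 3 overlapping matches): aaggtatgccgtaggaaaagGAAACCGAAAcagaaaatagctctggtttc
Ifit1 (chr19:34640784-34640833, plus strand): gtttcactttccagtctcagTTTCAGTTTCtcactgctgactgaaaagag
Ifit3 (chr19:34583353-34583402, plus strand): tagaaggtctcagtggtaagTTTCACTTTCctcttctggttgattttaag
Bst2 (chr8:71537567-71537616, minus strand): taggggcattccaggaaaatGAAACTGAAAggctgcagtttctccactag
B2m (chr2:122147528-122147577, plus strand): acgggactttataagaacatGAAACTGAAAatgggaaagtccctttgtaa
Stat2 (chr10:128270256-128270305, plus strand): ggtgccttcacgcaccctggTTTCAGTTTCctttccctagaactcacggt
Gbp2 (chr3:142620584-142620633, plus strand): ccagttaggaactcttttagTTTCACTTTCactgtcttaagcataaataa
Igtp (chr11:58199502-58199551, plus strand): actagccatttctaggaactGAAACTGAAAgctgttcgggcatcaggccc
Irf1 (chr11:53769904-53769952, plus strand, gamma-activated site): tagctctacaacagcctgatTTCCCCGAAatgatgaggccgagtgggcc
Psmb8 (chr17:34198078-34198126, plus strand, gamma-activated site): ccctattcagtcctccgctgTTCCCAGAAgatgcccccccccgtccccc
A match is a description of these letters, not evidence of binding.

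Between 11839240 and 28311328 reads per library fell in genes. Kcna1 itself did not separate the groups: it lay at 13.8 to 29.4 CPM in 5 epileptic sgKcna1 libraries and at 120 CPM in the other (mouse 12, the shallowest library, with 41.5% unmapped reads), beside 17.5 to 58.8 CPM in epileptic sgLacZ and 25.8 to 42.6 CPM in control sgLacZ. Groups below are therefore those of the labels. By quantitative PCR in a set of epileptic mice, the study reported more Kcna1 in sgKcna1-injected hippocampi than in the contralateral ones. By RNA-seq it saw no clear increase. In 6 libraries (control 16 and 23, epileptic sgLacZ 8, epileptic sgKcna1 1, 11 and 12) both Xist, expressed in females, and Y-linked genes exceeded 2 CPM, so these libraries go against a single sex, and results are given without them below. By whichever was larger, Xist or the Y-linked sum, 2 control, 4 epileptic sgLacZ and 2 epileptic sgKcna1 libraries were female and the others male. Leaving out the 6 libraries kept controls 13, 14 and 15 and epileptic sgKcna1 2, 3 and 10, all male. Of epileptic sgLacZ it kept mice 4, 5, 6 and 7, female, and mouse 9, male. In that fit sex can hardly be told apart from the comparisons with epileptic sgLacZ. Neuronal markers of the hippocampus summed to 6550 to 8519 CPM over all libraries.

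The genes varied together from mouse to mouse, and most of their variance lay within the groups. In log2(CPM + 0.5) with the group means taken out, the median correlation over the 1128 pairs of members was 0.73 across the 17 libraries, and 98.5% of pairs were positive. The median correlation of the members with all other tested genes was 0.006. These libraries share their preparation and scaling, and the values are a description. The spread within groups was also wide. The within-group SD on the log2 scale had a median of 0.64 over the members (range 0.28 to 1.19), beside 0.31 over all tested genes and 0.28 over the 4241 genes with a mean in the middle range of the members (6.27 to 24.9 CPM). It exceeded the median of all genes in 46 of 48 members and their upper quartile in 41. Group membership accounted for a median of 9.06% of a member's variance, beside 22.3% over all genes.

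The same mice carried the extremes. In the epileptic sgLacZ group, mouse 5 had the highest value for 31 of 48 members and mouse 8 for 13, and mouse 4 had the lowest for 38. In the epileptic sgKcna1 group, mouse 11 was highest for 42 members and mouse 2 lowest for 28. Among controls, mouse 15 was highest for 20 and mouse 16 lowest for 28. The mean deviation of a library from each gene's average, over all members, ran from −0.43 to 0.18 in controls, from −0.86 to 0.87 in epileptic sgLacZ mice and from −0.71 to 1.07 in epileptic sgKcna1 mice. This corresponds to a range of 1.53-fold, 3.33-fold and 3.43-fold within the respective groups. The ranges overlapped throughout. Mouse 12 of the sgKcna1 group, which stood apart in depth, had a mean deviation of −0.03. In the epileptic sgLacZ group library measures moved with the extremes. Mouse 4 had the lowest share of unmapped reads (11.0%) and the most reads in genes (28311328). Mice 5 and 8 had the highest unmapped shares (24.1% and 23.8%) and the fewest reads in genes (19655242 and 19942027). In the sgKcna1 group mouse 2 had the lowest unmapped share (19.1%) and the most reads in genes (26942755). Mouse 11, highest for most members, had 21.6% unmapped reads and 23160479 reads in genes. Among controls the order differed: mouse 15 had the lowest unmapped share (19.5%), and mouse 16 had the fewest reads in genes (15365455). The part of these library measures in the levels was not tested.

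**Figure D1:**
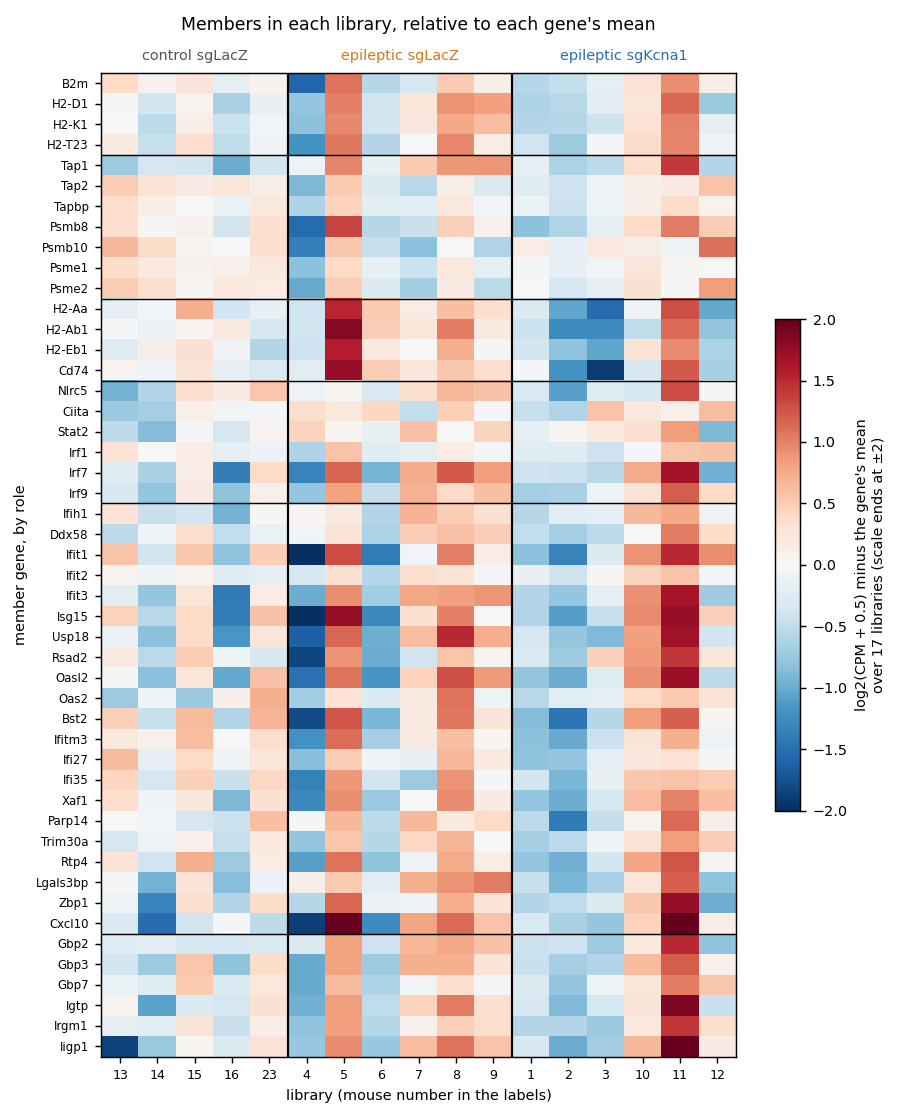
Heat map of the 48 measured members (rows, ordered by role) in the 17 libraries (columns, by group and mouse number), coloured by log2(CPM + 0.5) minus the gene's mean over all libraries. Epileptic sgLacZ mouse 5 and epileptic sgKcna1 mouse 11 are red for most members and epileptic sgLacZ mouse 4 and epileptic sgKcna1 mouse 2 are blue, so that the columns of single mice stand out more than the blocks of the groups.

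**Figure D2:**
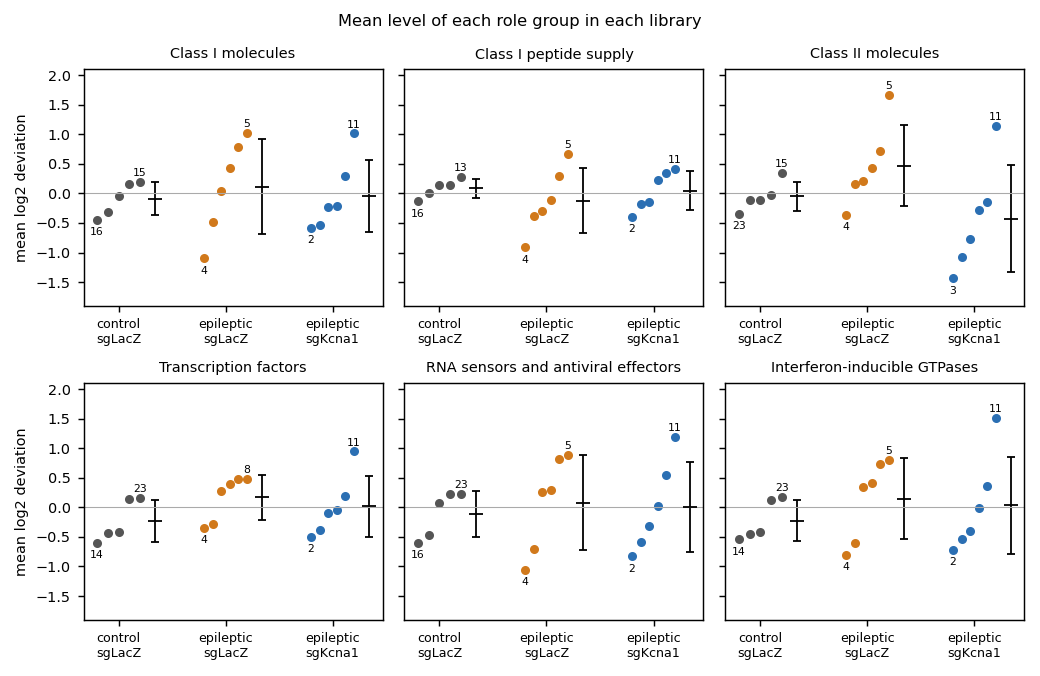
Mean log2 deviation of each role group in each library (points, numbered at the lowest and highest mouse) with the mean and SD of each group (bars). Controls span at most 0.83 log2 units in any role group, whereas epileptic sgLacZ mice span up to 2.12 and epileptic sgKcna1 mice up to 2.58.

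Comparing epileptic with control mice, both with sgLacZ, asks what chronic epilepsy does to these genes. Of the 48 members 1 passed an adjusted p of 0.05, the peptide transporter gene Tap1, which rose, beside 11.0% of the 17615 genes tested. At an unadjusted p of 0.05 in edgeR's test there were 4 members (Tap1, Stat2 and Lgals3bp higher, Psmb10 lower), beside 34.7% of all genes. Fitted log2 fold changes were above 0 for 36 of 48 beside 51.95% of all genes, with a median of 0.38 beside 0.02 over all genes. Comparing the guides within epileptic mice sets the sgKcna1 label beside sgLacZ, although Kcna1 itself did not separate these groups. Here 0 members and 0% of all genes passed in edgeR, 0 members were without overlap between the groups beside 0.483% of all genes, and 2 members (Psmb10 higher, H2-Ab1 lower) and 19.2% of all genes had an unadjusted p under 0.05. DESeq2 called 0 members and 143 genes, and limma voom 0 members and 12 genes. The median of the members was −0.10, beside −0.01 over all genes. Both comparisons use the same epileptic sgLacZ libraries, so their values are given side by side and are not independent.

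**Figure D3:**
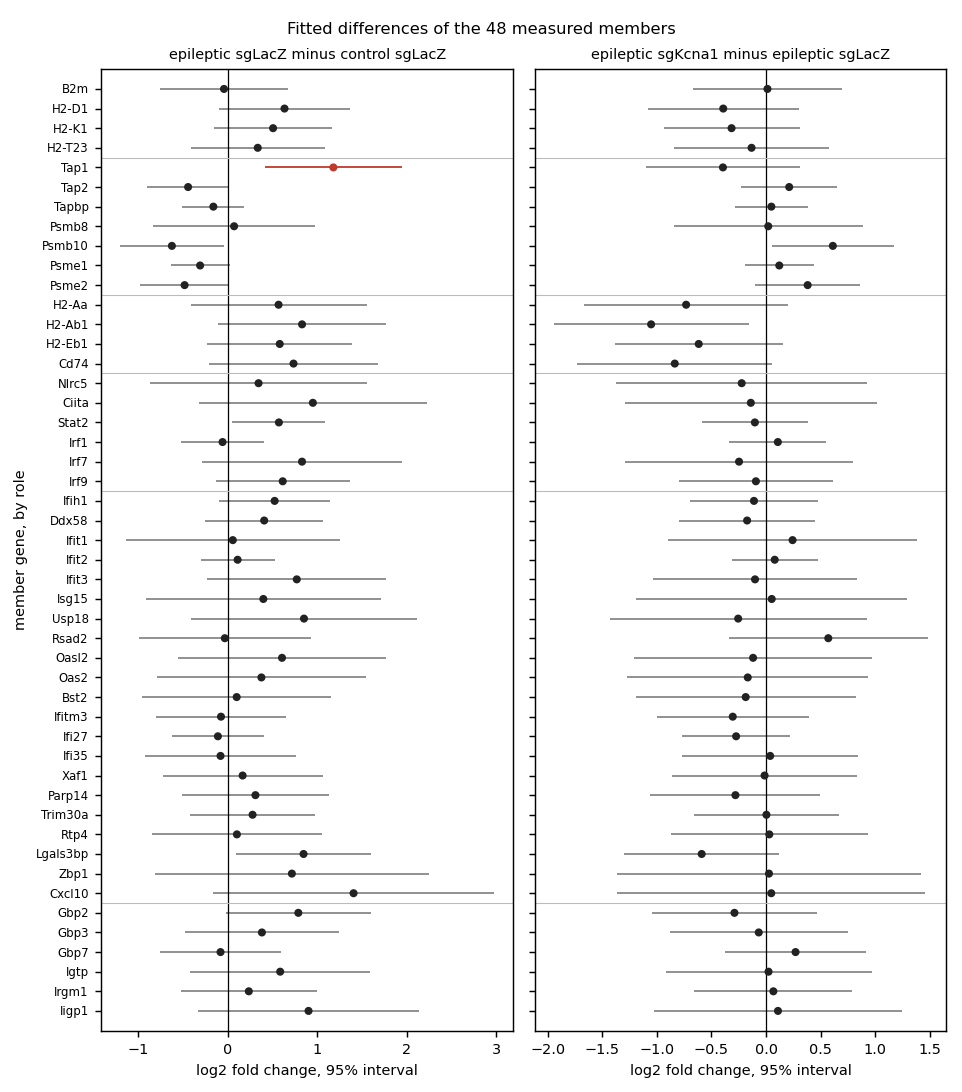
Fitted log2 fold change (points) with its 95% confidence interval (lines) for the 48 measured members, by role, for epileptic sgLacZ minus control sgLacZ (left) and epileptic sgKcna1 minus epileptic sgLacZ (right). Tap1 on the left (red, 1.18) is the single member past the adjusted threshold, and most intervals on both sides include 0.

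The class I molecules were variable and did not pass the test in either comparison. B2m, the light chain shared by all class I molecules (chr2:122147687-122153082), had 296, 239, 269, 198 and 238 CPM in the 5 controls, a lowest, median and highest of 74.4, 211 and 474 CPM in epileptic sgLacZ mice and of 151, 220 and 428 CPM in epileptic sgKcna1 mice. Controls lay inside the range of both epileptic groups. With epilepsy the log2 fold change was −0.04 (95% interval −0.76 to 0.68, adjusted p = 0.94) and with sgKcna1 0.01 (−0.67 to 0.70, adjusted p = 0.98).

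H2-D1, a classical class I heavy chain (chr17:35263094-35267497), had 110, 84.3, 114, 69.4 and 97.9 CPM in controls, 62.5, 160 and 220 CPM (lowest, median, highest) in epileptic sgLacZ mice and 64.5, 83.8 and 242 CPM in epileptic sgKcna1 mice. H2-K1, the other classical heavy chain (chr17:33996012-34000619), had 81.0, 56.0, 88.5, 59.5 and 77.1 CPM in controls, 45.0, 109 and 157 CPM in epileptic sgLacZ mice and 53.4, 64.6 and 161 CPM in epileptic sgKcna1 mice. Both were highest in mice 5 and 8 of the former epileptic group and in mouse 11 of the latter, and all groups overlapped. With epilepsy the log2 fold changes were 0.63 (SE 0.35, adjusted p = 0.20) for H2-D1 and 0.51 (SE 0.31, adjusted p = 0.26) for H2-K1. H2-T23, which encodes the nonclassical molecule Qa-1, lay at 0.33. With sgKcna1 the values were −0.39, −0.32 and −0.13. Across libraries the 4 class I genes had pairwise correlations of 0.89 to 0.96. Class I heavy chain genes are similar in sequence and reads that map to several places were not counted, so the levels of these heavy chain genes are uncertain.

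Among the peptide supply genes Tap1 rose with epilepsy, and 5 of the other 6 measured members had fitted values below 0 without passing the test (median of the 7, −0.31). Tap1, a subunit of the peptide transporter (chr17:34187556-34197225), had 3.79, 5.12, 4.93, 3.06 and 4.95 CPM in controls and 5.84, 11.0 and 13.4 CPM (lowest, median, highest) in epileptic sgLacZ mice, which do not overlap. The means were 4.37 ± 0.90 CPM (SD, n = 5) and 9.96 ± 3.35 CPM (SD, n = 6), and the log2 fold change was 1.18 (SE 0.37, 95% interval 0.41 to 1.95, adjusted p = 0.047). It was 1 of 48 members without overlap, beside 4.39% of all genes. In epileptic sgKcna1 mice Tap1 lay at 4.03, 5.07 and 18.3 CPM, where 3 of 6 mice fell within the range of the controls and mouse 11 exceeded every other library. Against epileptic sgLacZ it differed by −0.39 on the log2 scale (95% interval −1.10 to 0.31, adjusted p = 0.50). The Tap1 call in epilepsy stood close to the threshold: its adjusted p ranged from 0.013 to 0.11 over 26 alternatives, 15 of which lost the call, with a log2 fold change of 1.04 to 1.29 in all of them. Without the 6 libraries with reads of both sexes it was 1.04 (adjusted p = 0.066), and with sex as a covariate 1.15 (adjusted p = 0.064).

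Psmb10, a catalytic subunit of the immunoproteasome (chr8:105935728-105938392), had 139, 114, 90.9, 87.8 and 112 CPM in controls, 33.9, 61.0 and 128 CPM in epileptic sgLacZ mice and 78.5, 97.8 and 190 CPM in epileptic sgKcna1 mice. In 4 of 6 epileptic sgLacZ mice the value lay below every control, with mice 5 and 8 inside the control range, and the highest sgKcna1 value was that of the shallow library of mouse 12. Fitted log2 fold changes were −0.63 (SE 0.28, unadjusted p = 0.036 by edgeR, adjusted p = 0.12) with epilepsy and 0.61 (SE 0.27, unadjusted p = 0.033, adjusted p = 0.24) with sgKcna1. Without epileptic sgLacZ mouse 5 these became −0.88 (adjusted p = 0.013) and 0.87 (adjusted p = 0.043), both past the threshold.

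Psme1, a subunit of the PA28 activator that caps the proteasome (chr14:55578494-55581527), had 107, 96.2, 89.1, 89.4 and 97.1 CPM in controls, 47.1, 73.8 and 110 CPM in epileptic sgLacZ mice and 74.8, 82.2 and 98.4 CPM in epileptic sgKcna1 mice. Its log2 fold changes were −0.31 (SE 0.16, adjusted p = 0.17) and 0.12 (adjusted p = 0.65). Its partner Psme2 lay at −0.48 and 0.38, neither past the threshold. The transporter subunit Tap2 (−0.44 and 0.21), the loading factor Tapbp (−0.16 and 0.05) and the immunoproteasome subunit Psmb8 (0.07 and 0.02) did not pass either. Tap2, Tapbp and Psmb8 overlap neighbouring genes. Adding both strand counts gives the reads of an overlap to both genes, so the sum can hold reads of the neighbour. With both strand counts added the values with epilepsy were 0.01, −0.02 and 0.21. Of the 7 genes of the constitutive proteasome and its other activators, 1 fell and none rose with epilepsy, namely Psma1, a structural subunit (−0.40, adjusted p = 0.049). The catalytic subunits Psmb5 and Psmb6 lay at −0.44 and −0.49 (adjusted p = 0.081 and 0.097). The structural subunit Psma3 lay at −0.44 (adjusted p = 0.093), whereas the activators Psme4 and Psme3 and the catalytic subunit Psmb7 lay above 0, at 0.42 (adjusted p = 0.097), 0.19 (adjusted p = 0.12) and 0.10 (adjusted p = 0.73). Psmb7 overlaps another gene, and with both strand counts added it lay below 0, at −0.53 (adjusted p = 0.063).

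**Figure D4:**
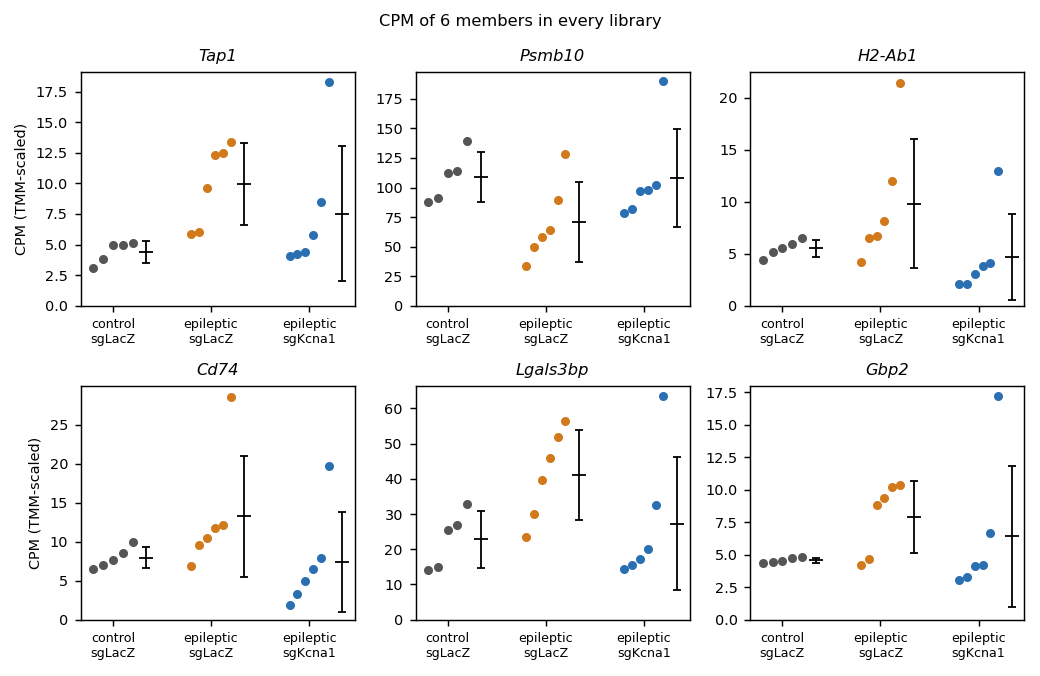
CPM of 6 members in every library (points) with the mean and SD of each group (bars), on axes that start at 0. Tap1 is the single one of the 6 whose control values (up to 5.12 CPM) lie below all epileptic sgLacZ values (from 5.84 CPM), and in the sgKcna1 group 1 mouse lies far above the others for 5 of the 6 genes (mouse 11) and for Psmb10 (mouse 12).

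The 4 class II molecules lay above 0 with epilepsy (median 0.66) and below 0 with sgKcna1 (median −0.78), and none passed the threshold. H2-Ab1, the beta chain of H2-A (chr17:34263227-34269418), had 5.52, 5.2, 5.89, 6.53 and 4.42 CPM in controls, 4.19, 7.44 and 21.5 CPM in epileptic sgLacZ mice and 2.05, 3.46 and 13.0 CPM in epileptic sgKcna1 mice. In the sgKcna1 group 5 of 6 mice lay below every epileptic sgLacZ value and mouse 11 had the second highest value of all libraries. Fitted log2 fold changes were 0.83 (SE 0.45, adjusted p = 0.19) with epilepsy and −1.05 with sgKcna1 (SE 0.43, 95% interval −1.95 to −0.16, unadjusted p = 0.023 by edgeR, adjusted p = 0.23). Over 26 alternatives the latter ranged from −1.83 to −0.66, with an adjusted p of 0.078 at the lowest.

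H2-Eb1, the beta chain of H2-E (chr17:34305867-34316674), had 6.28, 8.28, 9.41, 7.13 and 4.83 CPM in controls, 5.48, 8.13 and 23.1 CPM in epileptic sgLacZ mice and 3.39, 5.19 and 14.9 CPM in epileptic sgKcna1 mice. Cd74, the invariant chain that guides class II molecules to the endosome, had 8.49, 7.70, 9.95, 7.06 and 6.48 CPM in controls, 6.95, 11.1 and 28.6 CPM in epileptic sgLacZ mice and 1.83, 5.71 and 19.7 CPM in epileptic sgKcna1 mice. Mouse 5 was highest among epileptic sgLacZ mice and mouse 11 among epileptic sgKcna1 mice for all 4 class II genes. The log2 fold changes with sgKcna1 were −0.62 (adjusted p = 0.33) for H2-Eb1, −0.84 (adjusted p = 0.28) for Cd74 and −0.73 (adjusted p = 0.34) for H2-Aa, the alpha chain of H2-A. Without mouse 11 they were −1.70 for H2-Ab1, −0.99 for H2-Eb1 and −1.44 for Cd74, with an adjusted p of 0.078 to 0.15. Over 26 alternatives H2-Eb1 ranged from −0.99 to −0.24 and Cd74 from −1.81 to −0.46, with an adjusted p of up to 0.70 and 0.67. Against controls the 4 genes lay between −0.22 and −0.04 in epileptic sgKcna1 mice, and these values depended on mouse 11. Without it H2-Ab1, H2-Eb1 and Cd74 lay at −0.87, −0.41 and −0.70 against controls (adjusted p = 0.76 to 0.92), and without the 6 libraries with reads of both sexes at −1.08, −0.54 and −1.19 (adjusted p = 0.51 to 0.70). The 4 genes correlated at 0.90 to 0.95 with each other and at a median of 0.74 with the class I molecules.

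Among the transcription factors no member passed the test. Stat2, a subunit of the type I interferon complex (chr10:128270498-128292853), had 9.31, 7.24, 13.4, 10.7 and 14.4 CPM in controls, 12.2, 16.4 and 20.6 CPM in epileptic sgLacZ mice and 7.09, 14.9 and 24.6 CPM in epileptic sgKcna1 mice. With epilepsy Stat2 lay at 0.57 on the log2 scale (SE 0.25, unadjusted p = 0.033 by edgeR, adjusted p = 0.11), and 2 control mice reached into the epileptic range. Irf9, its DNA-binding partner (chr14:55603985-55610030), had 9.96, 7.03, 14.1, 7.00 and 13.5 CPM in controls, 7.15, 18.0 and 22.4 CPM in epileptic sgLacZ mice and 7.65, 13.4 and 29.9 CPM in epileptic sgKcna1 mice, with a log2 fold change of 0.61 (SE 0.36, adjusted p = 0.23).

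Irf1, induced through gamma-activated sites such as the one printed above (chr11:53770014-53778374), was steadier. It had 13.5, 11.0, 12.2, 9.46 and 10.0 CPM in controls, 6.95, 10.1 and 16.4 CPM in epileptic sgLacZ mice and 8.11, 9.90 and 16.6 CPM in epileptic sgKcna1 mice, with log2 fold changes of −0.06 (95% interval −0.52 to 0.41) and 0.11 (−0.34 to 0.55). Irf7, which amplifies the interferon response, varied widely within the epileptic sgLacZ group (3.34 to 22 CPM) and had a log2 fold change of 0.83 (SE 0.53, adjusted p = 0.27). Nlrc5 and Ciita, the activators of the class I and class II genes, were low, at most 2.92 and 0.93 CPM in any library, and lay at 0.34 and 0.95 with epilepsy and at −0.22 and −0.14 with sgKcna1. Ciita overlaps another gene, and with both strand counts added the difference with epilepsy was 0.25. The transcription factors had a median pairwise correlation of 0.41, with a range from −0.20 to 0.83.

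The 21 RNA sensors and antiviral effectors varied widely between mice (median within-group SD 0.78 on the log2 scale), and none passed the test in either comparison. Isg15, a ubiquitin-like protein attached to viral and host proteins, had 14.1, 6.74, 13.6, 3.60 and 15.4 CPM in controls, 1.74, 11.4 and 35.6 CPM in epileptic sgLacZ mice and 4.48, 10.8 and 35.1 CPM in epileptic sgKcna1 mice. All control values lay inside the range of the epileptic sgLacZ mice. Its log2 fold changes were 0.40 (95% interval −0.92 to 1.71) and 0.05 (−1.19 to 1.29), so that a change of 2-fold in either direction lies within the interval of the latter. Ifit1, which binds foreign RNA caps, ranged from 3.03 to 42.2 CPM in epileptic sgLacZ mice and from 9.46 to 25.4 CPM in controls, with log2 fold changes of 0.06 and 0.24. Usp18, which removes Isg15 from proteins and damps the receptor, ranged from 0.92 to 12.0 CPM in epileptic sgLacZ mice and lay at 0.85 and −0.26. Isg15, Ifit1 and Usp18 were chosen for their ranges after their values were seen.

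Cxcl10, a chemokine that attracts T cells (chr5:92346638-92348889), had the largest fitted difference of the members with epilepsy and no call. It had 2.49, 0.79, 2.34, 3.13 and 2.06 CPM in controls, 0.51, 5.43 and 14.4 CPM in epileptic sgLacZ mice and 1.67, 3.03 and 20.8 CPM in epileptic sgKcna1 mice. Of the epileptic sgLacZ mice 4 exceeded all controls and 2 lay within or below them. Fitted log2 fold changes were 1.41 (SE 0.75, adjusted p = 0.19) with epilepsy and 0.05 (SE 0.67, adjusted p = 0.97) with sgKcna1. The latter value rested on mouse 11: without it Cxcl10 lay at −1.02 (SE 0.60, adjusted p = 0.30), and without the 6 libraries with reads of both sexes at −0.99 (SE 0.85, adjusted p = 0.55).

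Lgals3bp, a secreted glycoprotein that is interferon-induced (chr11:118392747-118401959), had 26.9, 14.0, 33.0, 15.1 and 25.5 CPM in controls, 23.4, 42.8 and 56.4 CPM in epileptic sgLacZ mice and 14.3, 18.8 and 63.6 CPM in epileptic sgKcna1 mice. It was higher with epilepsy at an unadjusted p of 0.029 by edgeR (0.85, SE 0.36, adjusted p = 0.11) and lay at −0.59 (SE 0.34, adjusted p = 0.32) with sgKcna1, where 4 of 6 mice were below every epileptic sgLacZ mouse. In a fit of the control and epileptic sgLacZ libraries alone the former passed (adjusted p = 0.045).

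Ifitm3, a membrane protein that blocks viral entry (chr7:141009590-141010744), had 37.7, 35.0, 50.2, 32.9 and 41.4 CPM in controls, 13.8, 35.1 and 70.9 CPM in epileptic sgLacZ mice and 15.9, 27.6 and 53.7 CPM in epileptic sgKcna1 mice, with log2 fold changes of −0.08 and −0.30. Ifi27, an interferon-induced membrane protein (chr12:103434189-103440245, listed under its older name Ifi27l1), had 150, 84.7, 127, 91.5 and 115 CPM in controls, 53.5, 101 and 153 CPM in epileptic sgLacZ mice and 55.1, 89.7 and 119 CPM in epileptic sgKcna1 mice, with log2 fold changes of −0.11 and −0.27. Neither separated the groups. Over the other sensors and effectors (Ifih1, Ddx58, Ifit2, Ifit3, Rsad2, Oasl2, Oas2, Bst2, Ifi35, Xaf1, Parp14, Trim30a, Rtp4 and Zbp1) the log2 fold changes lay between −0.08 and 0.77 with epilepsy and between −0.28 and 0.57 with sgKcna1, and no p fell under 0.05 before adjustment. The 21 genes had a median pairwise correlation of 0.80 and correlated at a median of 0.87 with the class I molecules.

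The interferon-inducible GTPases showed the same mouse-to-mouse pattern. Gbp2, a guanylate-binding protein (chr3:142620663-142638008), was tight in controls, at 4.71, 4.83, 4.39, 4.40 and 4.54 CPM (mean 4.57 ± 0.19 CPM, SD, n = 5), and ranged over 4.17, 9.07 and 10.3 CPM in epileptic sgLacZ mice and 3.08, 4.16 and 17.2 CPM in epileptic sgKcna1 mice. Of the epileptic sgLacZ mice 4 were about 2-fold above the controls and 2 (mice 4 and 6) were at their level. With epilepsy the difference was 0.79 on the log2 scale (SE 0.39, adjusted p = 0.15), and 0.78 (adjusted p = 0.044) in a fit of these 2 groups alone. With sgKcna1 it was −0.29 (95% interval −1.04 to 0.47, adjusted p = 0.65).

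Gbp3, of the same family (chr3:142560016-142573213), had 7.74, 5.95, 15.1, 5.60 and 13.3 CPM in controls, 4.80, 14.6 and 18.0 CPM in epileptic sgLacZ mice and 6.16, 9.11 and 24.3 CPM in epileptic sgKcna1 mice. Gbp7 (chr3:142530336-142550151) had 6.49, 5.95, 10.5, 5.80 and 8.37 CPM in controls, 3.34, 6.94 and 11.4 CPM in epileptic sgLacZ mice and 4.00, 7.73 and 15.0 CPM in epileptic sgKcna1 mice. Their log2 fold changes were 0.38 and −0.08 with epilepsy and −0.07 and 0.27 with sgKcna1, none past the threshold.

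Irgm1, a regulator of the immunity-related GTPases (chr11:48865245-48871420), had 13.8, 13.2, 18.7, 11.3 and 17.4 CPM in controls, 8.72, 18.3 and 27.7 CPM in epileptic sgLacZ mice and 9.11, 14.1 and 42.7 CPM in epileptic sgKcna1 mice. Iigp1, an effector of that family, had 0.60, 1.87, 3.60, 2.73 and 4.36 CPM in controls, 1.84, 5.48 and 7.87 CPM in epileptic sgLacZ mice and 1.49, 3.30 and 15.9 CPM in epileptic sgKcna1 mice. The log2 fold changes with epilepsy were 0.23 for Irgm1 and 0.90 (SE 0.59, adjusted p = 0.28) for Iigp1, and with sgKcna1 0.07 and 0.11. Igtp lay at 0.59 and 0.02. Mouse 11 held the highest value of all 17 libraries for each of the 6 GTPases. Without it the values with sgKcna1 changed sign, to −0.39 (SE 0.28) for Irgm1 and −0.66 (SE 0.48) for Iigp1, with adjusted p of 0.40 and 0.39.

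Comparing epileptic sgKcna1 mice with controls asks how far treated epileptic mice stood from the controls. With this comparison 0 members and 0% of all genes passed in edgeR, while DESeq2 called 0 members and 39 genes and limma voom 0 members and 71 genes. Likewise 0 members were without overlap, beside 1.14% of all genes. At an unadjusted p of 0.05 there was 1 member (Tap1, 0.79, SE 0.36, adjusted p = 0.73), beside 6.77% of all genes. The median log2 fold change was 0.21 beside 0.02 over all genes, with 34 of 48 above 0 beside 52.8% of all genes. Without mouse 11 of the sgKcna1 group the median was −0.09 against controls and −0.42 against epileptic sgLacZ. In the latter comparison 11 members then had an unadjusted p under 0.05 by edgeR, with 0 calls. With all libraries this held for 2 members and 19.2% of all genes. The share of all genes without mouse 11 is not given here, so the 11 are not read as a result about the members. Among members described above, the difference from epileptic sgLacZ was then −0.89 for Tap1, −1.04 for Lgals3bp, −0.89 for Gbp2 and −0.77 for H2-D1, with an adjusted p of 0.13 to 0.16. For each of these genes this was the lowest value over 26 alternatives, and the highest were −0.26, −0.44, −0.15 and −0.22. Epileptic sgLacZ mouse 5, highest of its group for most members, stayed in this fit. Without the 6 libraries with reads of both sexes, which include mouse 11, the medians were −0.21 and −0.25, again with 0 calls, and that of epileptic sgLacZ against control was 0.31. In that fit sex nearly coincides with the comparisons with epileptic sgLacZ.

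The interferon ligands were at or near 0 reads: among the 8 that were matched, 0 had enough reads to be tested, Ifna2, Ifnl2 and Ifnl3 had 0 reads in all libraries, Ifnb1 and Ifng at most 6 and Il27, a related cytokine, at most 10. A library's limit of 3 reads corresponds to 0.11 to 0.25 CPM, so lower levels were not detectable at this depth. Of the 10 tested receptors, kinases and feedback genes 3 rose with epilepsy and none fell, beside 11.0% of all genes called in either direction. These were the receptor chain Ifngr1 (0.38, adjusted p = 0.049), the type I receptor kinase Tyk2 (0.94, adjusted p = 0.033) and the feedback inhibitor Socs3 (0.93, adjusted p = 0.040). The within-group SD of the 10 genes had a median of 0.22 on the log2 scale, beside 0.64 in the members.

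Of 12 nucleic acid sensing genes none passed, and the DNA receptor Tlr9 had the smallest p (2.12, SE 0.76, adjusted p = 0.068). Of 32 other tested interferon-stimulated genes 1 rose, Adar, an RNA-editing enzyme (2.01, adjusted p = 0.032), and of 11 other class I presentation genes 1 rose, the peptide-trimming enzyme Erap1 (0.55, adjusted p = 0.044). Both overlap other genes, whose reads the added strand counts can hold. With both strand counts added Adar was at 0.41 (adjusted p = 0.052) and Erap1 at −0.09 (adjusted p = 0.67). Of 13 other class II genes none passed, and Rfx5, an activator of class II promoters, had the smallest p (0.93, adjusted p = 0.054, and 0.00 with both strand counts added). None of the genes of these lists passed with sgKcna1.

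Markers of cells that express these genes also varied with the mice. The 12 microglial markers summed to 514 to 567 CPM in controls, 432 to 752 CPM in epileptic sgLacZ mice and 559 to 680 CPM in epileptic sgKcna1 mice. In the epileptic sgLacZ group mouse 4 was lowest and mouse 5 highest, as for most members. The other groups did not follow the members: mouse 15 was lowest and mouse 23 highest among controls. Among epileptic sgKcna1 mice, mouse 3 was lowest and mouse 12 highest. Of the 12 markers 1 rose with epilepsy, Csf1r (0.38, adjusted p = 0.036), and none fell. Csf1r overlaps another gene, and with both strand counts added it lay at 0.09 (adjusted p = 0.47). Markers of monocytes and neutrophils summed to 1.47 to 2.98, 0.37 to 6.27 and 1.68 to 3.92 CPM in the respective groups, with Ly6g at 0 reads throughout. They were again lowest in mouse 4 and highest in mouse 5 among epileptic sgLacZ mice. In the sgKcna1 group mouse 2 was lowest and mouse 11 highest, and among controls mouse 23 was lowest and mouse 13 highest. T cell markers summed to 2.00 to 4.01, 2.92 to 7.52 and 2.71 to 12.3 CPM, with at most 18 reads for Cd3e, 9 for Cd8a and 183 for Trbc2. The highest sums were in sgKcna1 mice 3 and 10 (12.3 and 10.7 CPM), where Trbc2 alone had 10.2 and 7.28 CPM. With sgKcna1 Trbc2 lay at 2.22 (unadjusted p = 0.0058 by edgeR, adjusted p = 0.21) and Lck, the other tested T cell marker, at 0.01. Markers of border macrophages summed to 7.07 to 18.1, 7.57 to 10.6 and 5.64 to 11.7 CPM. Choroid plexus markers summed to 1201 to 12530, 4426 to 11460 and 292 to 7832 CPM, lowest in sgKcna1 mouse 2. Hemoglobin and other red blood cell markers summed to 159 to 321, 46.9 to 191 and 86.2 to 380 CPM, lowest in mouse 4 and highest in mouse 5 among epileptic sgLacZ mice. In the sgKcna1 group mouse 11 was lowest and mouse 12 highest, and among controls mouse 23 was lowest and mouse 13 highest. Reactive astrocyte markers summed to 447 to 540, 499 to 893 and 390 to 778 CPM, and 2 of 7 rose with epilepsy, Gfap (0.60, adjusted p = 0.045) and Osmr (0.93, adjusted p = 0.035). Of the red blood cell markers 1 of 3 fell, Hba-a1 (−1.16, adjusted p = 0.040), and of the neuronal markers 1 of 7 rose, the glutamate transporter Slc17a7 (0.77, adjusted p = 0.037). These counts stand beside the 11.0% of all genes called in that comparison. The part of these cells in the levels of the members was not tested. In bulk tissue fewer cells of a type and less RNA per cell cannot be told apart.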

How the data were processed

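RNA-seq of polyadenylated RNA was available for 17 hippocampal libraries. The authors aligned reads to mm10 with STAR 2.7 and deposited raw read counts per gene for either strand, the forward and the reverse strand. Reads mapping to several places are not counted, so genes with close copies are undercounted. The reverse to forward ratio was 0.994 to 0.998, so unstranded counts were used. In these, reads inside 2 overlapping genes are lost, and the strand counts were added as an alternative (above 5% more in 10 members). Without strand information the sum counts such reads for both genes. Neither count therefore gives the gene's own reads alone and in full. The library kit is given as unstranded in the labels and as stranded in the study's methods.

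Counts were analysed with R 4.3.3 and edgeR 4.0.16 (filterByExpr, TMM, a quasi-likelihood F test, two-sided, all 17 libraries, 1 coefficient per group), with Benjamini-Hochberg adjustment over 17615 genes and a threshold of 0.05. Intervals are 95%. P-values measure the spread between libraries, which the labels number but do not tie to single animals. The fit was tested on simulated data. Alternatives were RLE scaling, no filter, DESeq2 1.42.0, limma 3.58.1 voom, added strand counts, 2 groups alone, covariates (unmapped reads, sex), leaving out each library and, chosen after seeing the data, leaving out 6 libraries. Members and lists were chosen with earlier results of these data known. Named per role are the 2 members with the highest mean CPM, the 2 with the smallest p with epilepsy and the 1 with the smallest p with sgKcna1, and any member called in the comparisons with sgKcna1. Coordinates are those of GRCm38.p6. Levels near 3 reads (0.11 to 0.25 CPM) are uncertain, and this floor covers counting error only.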

Additional observations from a re-analysis of the deposited data

Results flagged for a closer look

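For the 21 members named by rule and the 7 mean deviations, the highest and the lowest mouse of each group were compared with the rest, which made 84 groups of 5 or 6 mice, and 11 had a mouse whose distance to its nearest neighbour took up most of the group's range. For normally distributed values chance gives about 1 in 20 groups. The members were compared in CPM, not on a log scale, so this rate need not hold for them. All 11 flags were of a highest CPM value, and none fell on a mean deviation, which is on the log2 scale. In 9 of the 11 this was epileptic sgKcna1 mouse 11, the highest of its group: H2-D1 (242 CPM, next 129), Tap1 (18.3, next 8.45), H2-Ab1 (13.0, next 4.09), Cd74 (19.7, next 7.91), Lgals3bp (63.6, next 32.6), Cxcl10 (20.8, next 4.60), Gbp2 (17.2, next 6.64), Irgm1 (42.7, next 19.9) and Iigp1 (15.9, next 5.71). These genes vary together, so the flags are not independent. Mouse 11 had 23160479 reads in genes and 21.6% unmapped reads, within the range of its group, microglial markers at 679 CPM against up to 680 CPM in the group, and reads of both sexes. The others were epileptic sgLacZ mouse 5 for Cd74 (28.6 CPM, next 12.1) and epileptic sgKcna1 mouse 12 for Psmb10 (190 CPM, next 102), the shallowest library with 41.5% unmapped reads. The part of depth, sex or cell makeup in these values was not tested.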

How the results depend on the processing

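In the comparison of epileptic with control sgLacZ mice the number of members called (1, Tap1) was the same with DESeq2, RLE scaling, added strand counts and no filter, 0 with percent unmapped as a covariate, with sex as a covariate and without the 6 libraries with reads of both sexes, 3 in a fit of the 2 groups alone (Tap1, Lgals3bp and Gbp2) and 7 with limma voom (Tap1, Stat2 and Lgals3bp higher, Tap2, Psmb10, Psme1 and Psme2 lower). Leaving out single libraries gave 0 to 5 members, and 12 of 17 such fits gave 0. The highest was without epileptic sgLacZ mouse 5 (Tap1 higher, Tap2, Psmb10, Psme1 and Psme2 lower), and without epileptic sgKcna1 mouse 12 there were 2 (Tap1 and Stat2). In the main fit 11.0% of all genes were called. The share of all genes in each alternative is not given here, so these counts are not read as a result about the members. For sgKcna1 against sgLacZ in epileptic mice the number was 0 in every alternative except without epileptic sgLacZ mouse 5 (range 0 to 1, Psmb10), and for sgKcna1 against control it was 0 in all 26. The cause of these differences was not tested. Over 63 fitted differences of the 21 named members no called value changed sign, 97 of 1638 refitted values had the opposite sign to the main one, and in 96 of these the main value was smaller than its SE. The Tap1 call was kept without epileptic sgLacZ 5 or 6 or epileptic sgKcna1 2, 11 or 12 and lost without any other single library, at an adjusted p of 0.053 to 0.11. The median of the members with sgKcna1 ranged from −0.42 to 0.08 when single libraries were left out, and it was 0.07 with limma voom. No paired analysis was possible because the groups share no replicate numbers. Depth limits the low members Nlrc5, Ciita, Oas2 and Zbp1, which had under 100 reads in every library.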
